A study of Mus musculus with 342 samples.

Results

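Pctp encodes phosphatidylcholine transfer protein, also called StarD2, and was followed here as a single gene in the livers of genetically diverse mice given TAK-875. It is 1 of 9093 genes in the table that a probe set names alone, and it was selected on the measured rise of its transcript with the compound in these arrays. It was read from both probe sets whose platform symbol is Pctp (gene ID 18559), out of 16397 probe sets. The main probe set, 1420984_PM_at, has the higher mean over all arrays, and the other is 1420983_PM_at.

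The animals were male mice of 44 Collaborative Cross lines, recombinant inbred lines bred from genetically diverse founders, aged about 8 to 10 weeks when treatment began. One mouse of each study pair received a single oral gavage dose of TAK-875 (fasiglifam, which activates GPR40, a receptor for free fatty acids) at 600 mg/kg, and its pair-mate of the same line received the methylcellulose vehicle at 0 mg/kg. Liver was taken 24 hours after the dose, and total RNA of each mouse was put on 1 Affymetrix HT MG-430 PM array. There were 171 arrays per treatment, with 4 pairs in 39 lines and 3 pairs in 5 lines. A line beyond these 44 that the labels count is not analysed here. By the labels, the mice of a line are of 1 inbred line, which was not checked against genotypes here. Levels below are log2 values made by the authors with RMA, and a difference of 1 on that scale is 2-fold. No detection call was used here, so the distance of a low level to the background is not known.

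Pctp belongs to the START domain family, several of whose members hold 1 lipid in a closed pocket. The protein binds phosphatidylcholine, the main phospholipid of liver membranes, bile and lipoproteins, and moves it between membranes in vitro. In mouse liver, it binds the acyl-CoA thioesterase Acot13 (Them2), and its gene is known as a target of PPARA, the nuclear receptor that switches on fatty acid oxidation genes. These statements are background and are not results of these arrays.

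The 250 bases before the annotated start of Pctp are shown because PPARA and related receptors bind repeats of letters such as AGGTCA. They lie on the minus strand at chr11:90002895-90003144 (GRCm38.p6, RefSeq), upstream of the gene, and are given 5′ to 3′. Capitals mark GGGTCA and its reverse complement TGACCC.
Pctp promoter: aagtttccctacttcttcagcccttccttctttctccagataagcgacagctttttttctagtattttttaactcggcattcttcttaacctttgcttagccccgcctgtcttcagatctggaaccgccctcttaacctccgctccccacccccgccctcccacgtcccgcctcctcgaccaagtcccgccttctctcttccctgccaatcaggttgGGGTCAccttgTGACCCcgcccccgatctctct
GGGTCA was found 2 times, once on each strand, with first bases 33 and 22 bases before the start. Of 32851 promoter windows of the same length, 11.6% hold GGGTCA on either strand. The letters AGGTCA were not in the Pctp window, while 14.0% of the windows hold them on either strand, and neither was AGGTCA repeated after 1 free base, which 0.0335% hold. The 2 GGGTCA matches face each other across 5 bases. The pattern GGGTCA, 5 free bases, TGACCC was chosen after reading this sequence, overlaps both matches, and stood in 1 of the 32851 windows, that of Pctp. Of the 12 genes whose response was most like that of Pctp, described further on, 9 had a window, with AGGTCA in that of Ppcs and GGGTCA in those of Ddah1 and Ehhadh. A match to letters is a description and not a binding site.

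Pctp was higher in TAK-875 livers than in vehicle livers in every line by the mean of its pairs. The TAK-875 arrays had a lowest, median and highest Pctp level of 4.37, 8.46 and 10.07, against 4.56, 7.71 and 9.00 on the vehicle arrays. Averaged over lines, the TAK-875 level was 8.34 and the vehicle level 7.46. The distributions overlapped widely across lines, whereas within a line and pair the TAK-875 mouse was usually the higher one.

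The mean difference over 44 lines was 0.88 ± 0.50 (SD, n = 44 lines), which is 1.84-fold, by the main probe set. By the other probe set, it was 0.80 ± 0.44, or 1.74-fold. Because Pctp was chosen for this response, these values are a description and no test is given. The mean rise ranked 6th of 9093 genes. All 44 lines had a positive mean by both probe sets. Read by a single probe set for each gene, 0.044% of genes, Pctp included, were above 0 in all lines. The TAK-875 mouse was the higher one in 158 of 171 pairs by the main probe set, a number reached by 0.055% of genes, and in 163 pairs by the other. Pair differences had a lowest, median and highest value of -0.50, 0.81 and 3.05. In 34 lines the TAK-875 mouse was higher in every pair.

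The strictest reading within a line asks that all its TAK-875 arrays lie above all its vehicle arrays. That held for Pctp in 29 lines by the main probe set and 27 by the other, while over all genes it held for 3.92% of gene and line combinations. The 15 lines whose arrays overlapped by the main probe set were CC008/GeniUnc, CC010/GeniUnc, CC017/Unc, CC019/TauUnc, CC023/GeniUnc, CC025/GeniUnc, CC028/GeniUnc, CC029/Unc, CC032/GeniUnc, CC035/Unc, CC039/Unc, CC040/TauUnc, CC044/Unc, CC055/TauUnc and CC071/TauUnc. In 10 of these, not every pair had the TAK-875 mouse higher by that probe set. By the other probe set, CC017/Unc, CC019/TauUnc, CC023/GeniUnc, CC028/GeniUnc, CC032/GeniUnc and CC044/Unc were separate. CC002/Unc, CC004/TauUnc, CC006/TauUnc, CC011/Unc, CC015/Unc, CC022/GeniUnc, CC024/GeniUnc and CC033/GeniUnc overlapped by it, though separate by the main one. Unless stated, separate or overlapping arrays named further on are by the main probe set. The sign in every line depended on 1 pair in 1 line by the main probe set: without strain pair 1, the mean of CC010/GeniUnc was -0.18 instead of 0.11. By the other probe set, 3 lines turned below 0 when 1 pair was left out, CC006/TauUnc at -0.41, CC040/TauUnc at -0.03 and CC071/TauUnc at -0.0023.

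**Figure D1:**
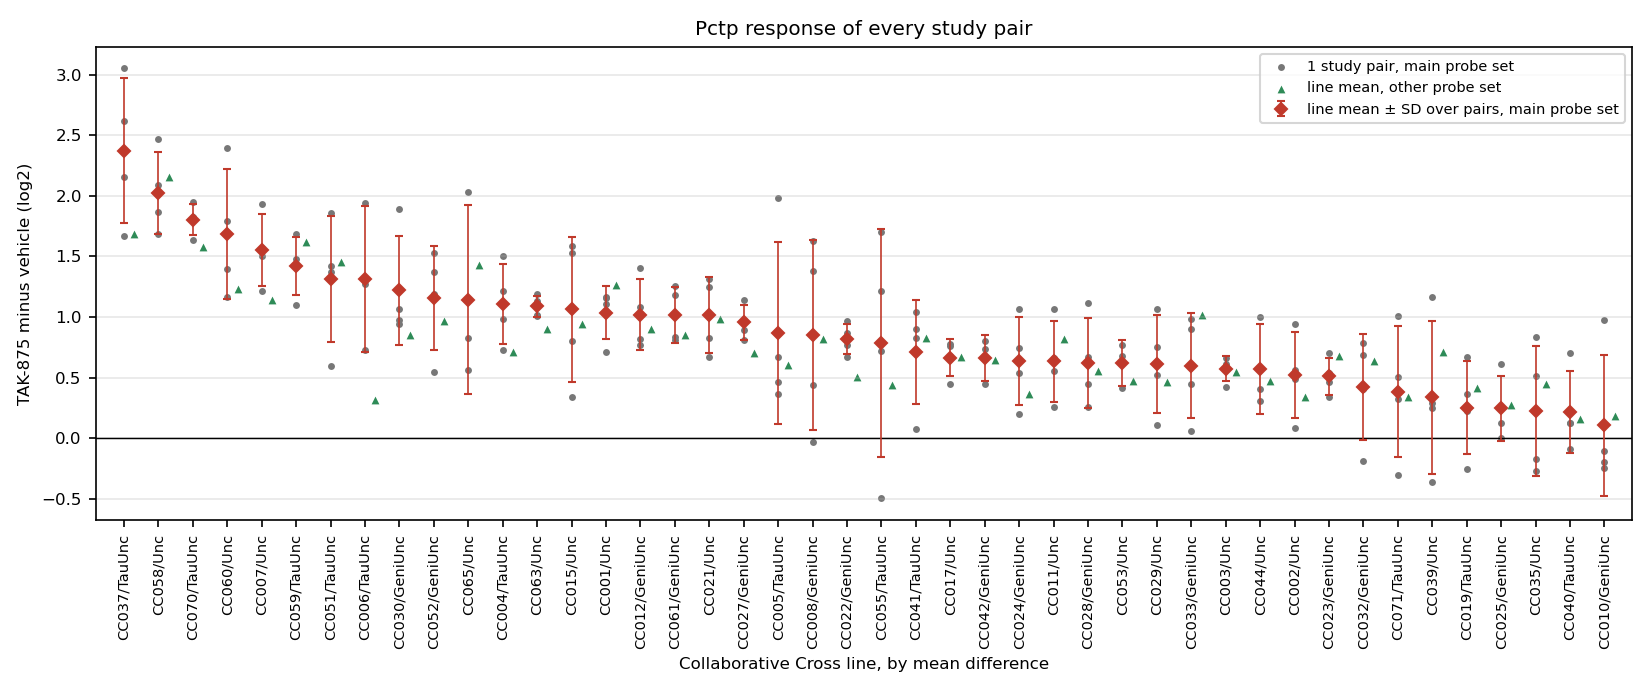
TAK-875 minus vehicle difference of Pctp (log2) in every study pair, by line in order of the line mean. Grey points are pairs and red diamonds line means ± SD over pairs by the main probe set, green triangles line means by the other probe set; line means run between 0.11 in CC010/GeniUnc and 2.37 in CC037/TauUnc.

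The size of the response ran over a wide range of lines. In CC037/TauUnc, the TAK-875 mice had 8.31, 7.20, 6.70 and 7.71, against 5.26, 5.04, 5.03 and 5.09 in the vehicle mice, by strain pair 1 to 4. In CC058/Unc, the levels were 8.43, 7.77, 8.15 and 7.52 with TAK-875, against 6.56, 5.30, 6.46 and 5.43 with vehicle. The arrays of both lines were separate by treatment, and their mean differences were 2.37 ± 0.60 (5.18-fold) in CC037/TauUnc and 2.03 ± 0.34 (4.07-fold) in CC058/Unc (SD over 4 pairs each). The next largest responses by the main probe set were in CC070/TauUnc and CC060/Unc. CC070/TauUnc had 9.12, 8.76, 9.00 and 9.33 with TAK-875, against 7.49, 6.93, 7.20 and 7.38 with vehicle, a difference of 1.80 ± 0.13. CC060/Unc had 6.54, 6.76, 6.46 and 7.78 with TAK-875, against 5.37, 4.97, 5.07 and 5.39 with vehicle, a difference of 1.69 ± 0.54. Of these 4 lines, CC070/TauUnc had the pairs closest to each other, and no array of any of the 4 crossed over.

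At the other end, treatments overlapped in all 4 lines of smallest response by the main probe set. CC040/TauUnc had 8.14, 8.04, 7.98 and 8.36 with TAK-875, against 7.44, 7.92, 8.07 and 8.23 with vehicle, a difference of 0.22 ± 0.34. CC035/Unc had 8.39, 8.46, 7.84 and 7.91 with TAK-875, against 7.55, 7.95, 8.11 and 8.08 with vehicle. By this probe set, the TAK-875 mouse was higher in 2 of its 4 pairs. CC025/GeniUnc had 8.45, 8.14, 8.08 and 7.70 with TAK-875, against 8.33, 7.53, 7.83 and 7.70 with vehicle. These differences, 0.22 ± 0.54 in CC035/Unc and 0.24 ± 0.26 in CC025/GeniUnc, were no larger than their SD over pairs. By the other probe set, CC040/TauUnc rose by 0.15 ± 0.40, the smallest response of any line, and CC025/GeniUnc by 0.27 ± 0.40. CC035/Unc rose in all 4 pairs by that probe set. Its pair differences were 0.87, 0.62, 0.02 and 0.29, a mean of 0.45 ± 0.37.

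The smallest response by the main probe set, in CC010/GeniUnc, came from a line whose mice did not resemble each other. With TAK-875 the line had 5.86, 7.56, 4.79 and 4.37, against 4.89, 7.81, 4.89 and 4.56 with vehicle. Both mice of strain pair 2 were high, whatever the treatment, and the other probe set showed the same split, with 6.77 in the TAK-875 mouse and 6.51 in the vehicle mouse of that pair. Whether these mice are of the labelled line was not tested. The other probe set read 4.42 to 5.19 in the remaining TAK-875 mice and 4.21 to 5.05 in the remaining vehicle mice. By that probe set, the TAK-875 mouse was higher in every pair of the line. The pair differences were 0.14, 0.27, 0.14 and 0.21, a mean of 0.19 ± 0.06 (SD over 4 pairs). The TAK-875 array of strain pair 4 had the lowest median correlation with the other arrays of its line and treatment in the whole series, 0.821, where the median over arrays was 0.976. Left out as a line, CC010/GeniUnc changed the mean difference over lines to 0.90.

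Between lines, the Pctp response had an SD of 0.44 once the variance within lines was removed, the 49th largest of 9093 genes. Within lines, pair differences had an SD of 0.44 as well. In the order of the 44 line responses, all 43 gaps between neighbours were smaller than that within-line SD. That SD is of single pair differences, and an order of many lines has small gaps in any case. The gaps therefore do not show whether neighbours differed. The largest gap, 0.35, separated CC037/TauUnc from CC058/Unc. Strain pair numbers 1 to 4 gave mean differences of 0.92, 0.92, 0.80 and 0.89 over 41, 43, 44 and 43 pairs, with 40, 40, 40 and 38 pairs higher. The pair numbers thus gave like values.

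Both probe sets ranked the lines much alike. Over 44 lines, their responses correlated with r = 0.833 and their vehicle levels with r = 0.900, values that share the arrays they were read from. The responses differed by more than 0.5 between the probe sets in 2 lines. In CC037/TauUnc the other probe set gave 1.68, and in CC006/TauUnc it gave 0.31 where the main one gave 1.31. The largest response by the other probe set was 2.16, in CC058/Unc. In CC006/TauUnc the other probe set read 4.79, 5.65 and 6.09 with TAK-875, against 5.86, 5.39 and 4.35 with vehicle, so its arrays overlapped while those of the main probe set did not.

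Vehicle mice already differed widely in Pctp signal. By the main probe set, line means of the vehicle level ran between 4.90 and 8.83, a 15.2-fold range, around a median of 7.71. The SD between lines was 0.88 after the variance within lines was removed, against 0.39 within lines, and was the 205th largest of 9093 genes. A moderated F test over the vehicle arrays gave F = 21.0 with 127 residual degrees of freedom (limma, adjusted p = 5.86e-40). That call is shared by 98% of genes, so it places Pctp among most of the transcriptome, and its F ranked 245th. By the other probe set, vehicle line means ran from 4.92 in CC060/Unc to 7.70 in CC061/GeniUnc, a narrower range. Study pair numbers run in blocks by line, so line and any order of handling cannot be told apart. Whether sequence differences between lines change the probe signal was not tested. Both limits also hold for the TAK-875 levels.

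The lowest vehicle means of Pctp were found in 5 lines, which by the main probe set lay below a gap to the other 39. CC006/TauUnc averaged 6.21 ± 0.60 with TAK-875 and 4.90 ± 0.05 with vehicle (SD, 3 pairs), CC037/TauUnc averaged 7.48 ± 0.69 with TAK-875 and 5.11 ± 0.11 with vehicle, and CC060/Unc averaged 6.88 ± 0.61 with TAK-875 and 5.20 ± 0.21 with vehicle. CC010/GeniUnc averaged 5.64 ± 1.42 with TAK-875 and 5.54 ± 1.52 with vehicle, and CC058/Unc averaged 7.96 ± 0.40 with TAK-875 and 5.94 ± 0.67 with vehicle. The next line, CC065/Unc, was 0.75 above CC058/Unc on vehicle, the largest gap in the order. Single mice overlapped across it, with 6.56 and 6.46 in CC058/Unc vehicle mice and 6.31 in a CC065/Unc vehicle mouse. By the other probe set the same 5 lines were lowest, at 4.92 to 5.20, but CC001/Unc (5.30) and CC065/Unc (5.33) followed closely. In the vehicle order by the main probe set, 41 of 43 neighbouring pairs lay closer than the within-line SD of single mice. In CC006/TauUnc the TAK-875 mice had 5.60, 6.23 and 6.80, against 4.87, 4.96 and 4.86 in the vehicle mice. There the vehicle mice lay close together and below every TAK-875 mouse.

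Above CC058/Unc the vehicle levels formed a nearly continuous series. CC065/Unc averaged 7.83 ± 0.48 with TAK-875 and 6.69 ± 0.46 with vehicle (3 pairs). CC022/GeniUnc averaged 7.52 ± 0.23 with TAK-875 and 6.71 ± 0.35 with vehicle, and CC007/Unc averaged 8.49 ± 0.28 with TAK-875 and 6.94 ± 0.04 with vehicle. In these 3 lines the arrays were separate by treatment. CC008/GeniUnc averaged 7.86 ± 0.72 with TAK-875 and 7.01 ± 0.67 with vehicle. CC055/TauUnc averaged 7.92 ± 0.74 with TAK-875 and 7.14 ± 0.25 with vehicle, and CC070/TauUnc averaged 9.05 ± 0.24 with TAK-875 and 7.25 ± 0.24 with vehicle. CC070/TauUnc was separate by treatment, and the other two overlapped. CC001/Unc averaged 8.29 ± 0.27 with TAK-875 and 7.26 ± 0.31 with vehicle. CC030/GeniUnc averaged 8.49 ± 0.46 with TAK-875 and 7.27 ± 0.20 with vehicle, and CC024/GeniUnc averaged 7.99 ± 0.14 with TAK-875 and 7.35 ± 0.32 with vehicle. CC005/TauUnc averaged 8.26 ± 0.30 with TAK-875 and 7.39 ± 0.50 with vehicle, and CC004/TauUnc averaged 8.52 ± 0.35 with TAK-875 and 7.41 ± 0.40 with vehicle. Pctp was separate by treatment in each of these last 5 lines.

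The middle of the vehicle order followed. CC042/GeniUnc averaged 8.18 ± 0.07 with TAK-875 and 7.52 ± 0.20 with vehicle (3 pairs). CC059/TauUnc averaged 8.97 ± 0.11 with TAK-875 and 7.55 ± 0.32 with vehicle, and CC033/GeniUnc averaged 8.15 ± 0.34 with TAK-875 and 7.55 ± 0.11 with vehicle. CC059/TauUnc and CC033/GeniUnc shared a vehicle mean of 7.55 by the main probe set, with responses of 1.42 ± 0.24 in CC059/TauUnc and 0.60 ± 0.43 in CC033/GeniUnc (SD over 4 pairs each). By the other probe set, their vehicle means lay apart, at 6.70 in CC059/TauUnc and 5.76 in CC033/GeniUnc, and their responses were 1.62 in CC059/TauUnc and 1.01 in CC033/GeniUnc. CC044/Unc averaged 8.17 ± 0.32 with TAK-875 and 7.60 ± 0.31 with vehicle (3 pairs). CC063/Unc averaged 8.77 ± 0.12 with TAK-875 and 7.69 ± 0.11 with vehicle, and CC029/Unc averaged 8.32 ± 0.52 with TAK-875 and 7.71 ± 0.30 with vehicle. The TAK-875 mice of CC063/Unc differed little among themselves, whereas those of CC029/Unc spread more widely. CC003/Unc averaged 8.29 ± 0.06 with TAK-875 and 7.72 ± 0.11 with vehicle, and CC051/TauUnc averaged 9.06 ± 0.40 with TAK-875 and 7.75 ± 0.14 with vehicle. CC044/Unc and CC029/Unc overlapped, and the other lines named here were separate.

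A further run of lines lay close to 8 on vehicle. CC025/GeniUnc averaged 8.09 ± 0.31 with TAK-875 and 7.85 ± 0.34 with vehicle. CC032/GeniUnc averaged 8.30 ± 0.31 with TAK-875 and 7.88 ± 0.16 with vehicle, and CC012/GeniUnc averaged 8.91 ± 0.27 with TAK-875 and 7.89 ± 0.17 with vehicle. CC012/GeniUnc alone of these had separate arrays. CC040/TauUnc averaged 8.13 ± 0.17 with TAK-875 and 7.92 ± 0.34 with vehicle. CC041/TauUnc averaged 8.63 ± 0.27 with TAK-875 and 7.92 ± 0.23 with vehicle, and CC035/Unc averaged 8.15 ± 0.32 with TAK-875 and 7.92 ± 0.26 with vehicle. CC041/TauUnc alone of these had separate arrays. CC052/GeniUnc averaged 9.10 ± 0.21 with TAK-875 and 7.94 ± 0.45 with vehicle, and CC039/Unc averaged 8.29 ± 0.25 with TAK-875 and 7.96 ± 0.48 with vehicle. CC052/GeniUnc was separate by treatment and CC039/Unc was not.

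The highest vehicle levels of Pctp belonged to the last lines in the order. CC011/Unc averaged 8.64 ± 0.31 with TAK-875 and 8.01 ± 0.16 with vehicle. CC019/TauUnc averaged 8.28 ± 0.29 with TAK-875 and 8.03 ± 0.11 with vehicle, and CC023/GeniUnc averaged 8.62 ± 0.31 with TAK-875 and 8.11 ± 0.31 with vehicle. CC011/Unc alone of these had separate arrays. CC053/Unc averaged 8.73 ± 0.08 with TAK-875 and 8.11 ± 0.12 with vehicle (3 pairs). CC028/GeniUnc averaged 8.74 ± 0.22 with TAK-875 and 8.12 ± 0.26 with vehicle, and CC002/Unc averaged 8.67 ± 0.14 with TAK-875 and 8.15 ± 0.25 with vehicle. CC028/GeniUnc overlapped, and the other two were separate. CC027/GeniUnc averaged 9.11 ± 0.24 with TAK-875 and 8.15 ± 0.30 with vehicle. CC021/Unc averaged 9.18 ± 0.17 with TAK-875 and 8.16 ± 0.15 with vehicle, and CC017/Unc averaged 8.91 ± 0.31 with TAK-875 and 8.25 ± 0.43 with vehicle. Of these 3, CC017/Unc alone had overlapping arrays. CC071/TauUnc averaged 8.70 ± 0.49 with TAK-875 and 8.31 ± 0.14 with vehicle, and CC015/Unc averaged 9.56 ± 0.36 with TAK-875 and 8.49 ± 0.45 with vehicle. CC015/Unc was separate by treatment and CC071/TauUnc overlapped. CC061/GeniUnc, the highest line under both treatments, had 9.74, 9.80, 10.03 and 9.80 with TAK-875, against 8.91, 8.62, 8.78 and 9.00 with vehicle.

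**Figure D2:**
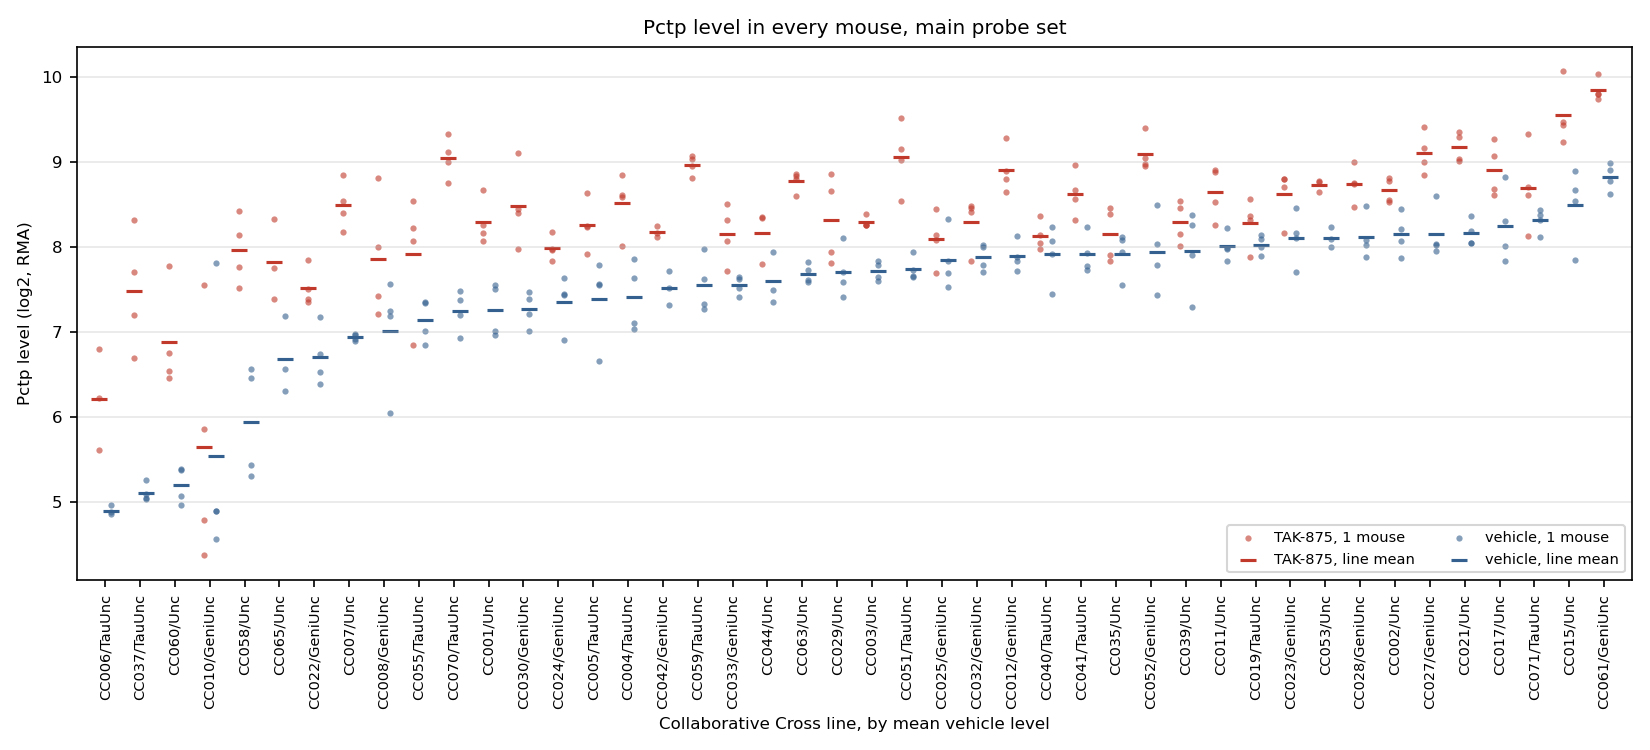
Pctp level (log2, main probe set) in every mouse, by line in order of the mean vehicle level. Red stands for TAK-875 and blue for vehicle, points are mice and bars line means; the 4 CC010/GeniUnc mice per treatment spread over about 3 units, and the vehicle means lie between 4.90 in CC006/TauUnc and 8.83 in CC061/GeniUnc.

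Lines largely kept their order of Pctp level under the compound. By the main probe set, line means with TAK-875 ran between 5.64 and 9.85, an 18.4-fold range, around a median of 8.31. With vehicle they ran from 4.90 to 8.83. Their SD over lines was 0.77 with TAK-875 and 0.90 with vehicle. The TAK-875 and vehicle line means, which come from different mice of the same study pairs, correlated with r = 0.832 and rho = 0.733 over 44 lines (two-sided permutation test, p = 1e-05 for each, the smallest that 100000 permutations can give, and adjusted p = 1e-05 over the 4 relations computed). Without the 2 lines farthest from the median vehicle level, r was 0.806. Without the 5 lines of lowest vehicle level, it was 0.691 and rho 0.620 (n = 39). The other probe set gave r = 0.799, and its TAK-875 line means ran over a narrower range, from 5.33 in CC010/GeniUnc to 8.55 in CC061/GeniUnc. Deviations of pair-mates from their line and treatment means correlated by 0.40 for Pctp, by 0.158 without CC010/GeniUnc, where the median over genes was 0.043. Over all genes, the median of the correlation between line means was 0.620, and 1153 genes had a higher one than Pctp. The slope of the TAK-875 level on the vehicle level was 0.71. In the TAK-875 order, 40 of 43 neighbouring gaps were below the within-line SD of 0.42, and the largest, 0.68, separated CC006/TauUnc from CC060/Unc.

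**Figure D3:**
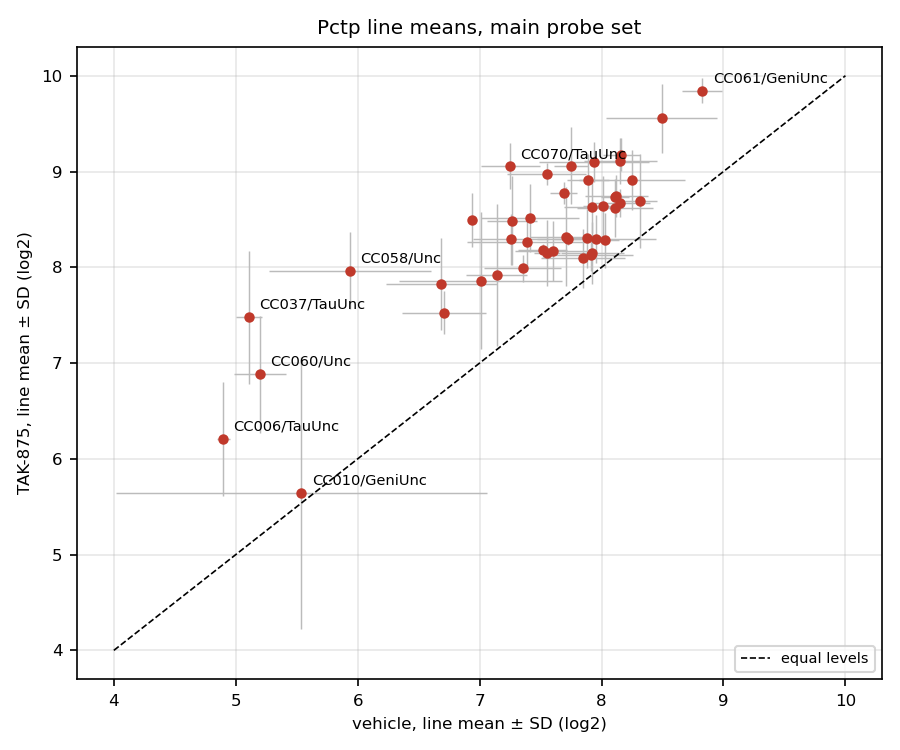
Line mean of the Pctp level with TAK-875 (vertical) against that with vehicle (horizontal), both log2 ± SD over the mice of the line, main probe set. All 44 points lie above the dashed line of equal levels, closest to it in CC010/GeniUnc.

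Other genes were ranked by how closely their line responses tracked those of Pctp, by Pearson r over 44 line means. These correlations are descriptions, since all genes of a line were read from the same arrays. The closest was Acot1, a cytosolic acyl-CoA thioesterase (r = 0.622). It was followed by Cpt2, the carnitine palmitoyltransferase of the inner mitochondrial membrane (0.595), Gstt2, a glutathione transferase (0.591), Aldh3a2, the fatty aldehyde dehydrogenase (0.583), and Ehhadh, an enzyme of peroxisomal fatty acid oxidation (0.571). Next came Nsfl1c, a cofactor of the p97 ATPase (0.551), Creg1, a glycoprotein of lysosomes (0.548), and Ddah1, which degrades dimethylarginine (0.541). Pank1 (0.515) and Ppcs (0.512), enzymes of coenzyme A synthesis, Crat, the carnitine acetyltransferase (0.502), and Chrna2, an acetylcholine receptor subunit (0.500), completed the 12, and the gene after them, the nuclear receptor Nr1i3, had 0.485. The r values fell off gradually, with no break after the 12.

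Of these 12 genes, 11 passed the test of a higher mean level with TAK-875 over lines (limma, adjusted p under 0.05), a call that 15.3% of all genes received. Acot1 averaged 7.89 with TAK-875 and 6.52 with vehicle, a difference of 1.37 ± 0.85 (SD, 44 lines, adjusted p = 1.47e-12), and rose in 41 lines. Ehhadh averaged 10.96 with TAK-875 and 10.14 with vehicle, a difference of 0.81 ± 0.35 (adjusted p = 5.74e-17), and was higher in all 44 lines. Cpt2 moved less, by 0.20 ± 0.24, yet its response had the second highest r with that of Pctp. Ddah1, at 0.12 ± 0.45, did not pass (adjusted p = 0.172). The 12 genes thus included both large and small changes of the mean.

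Likeness to Pctp was also read within lines, over pair differences with the line mean removed. All 12 genes had an r above 0 there, between 0.064 in Ddah1 and 0.519 in Cpt2, where 70.1% of the other 9092 genes were above 0 with a median of 0.064. The 12 highest within lines were Cpt2, Aldh3a2, Acot1, the carnitine carrier Slc25a20, Odc1, Crat, Pex14, Gclc, Mlycd, Ehhadh, Mcrip2 and Nr1i3, and 5 of them were among the 12 over lines. Without the 5 lines of lowest vehicle level, r for the 12 over lines ran between 0.458 in Nsfl1c and 0.756 in Cpt2. Without the 2 lines of largest Pctp response, CC037/TauUnc and CC058/Unc, the lowest was 0.426. With the response of the other Pctp probe set, r for the 12 ran between 0.400 in Nsfl1c and 0.622 in Acot1. Without strain pair number 4, it ran from 0.352 in Creg1 and 0.387 in Ppcs up to 0.630 in Cpt2.

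The opposite end was weaker. Zfp697 (r = -0.480), the SUMO protease Senp1 (-0.477), Dennd5a (-0.469), the interferon regulatory factor Irf7 (-0.446), Gtpbp2 (-0.439) and the small GTPase Rab35 (-0.439) had the lowest r with the Pctp response. Of these, only Irf7 passed the test of the mean over lines, falling by 0.27 (adjusted p = 0.000114). Within lines their r values were -0.214 at the lowest, in Senp1, and 0.097 in Rab35, which turned positive.

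**Figure D4:**
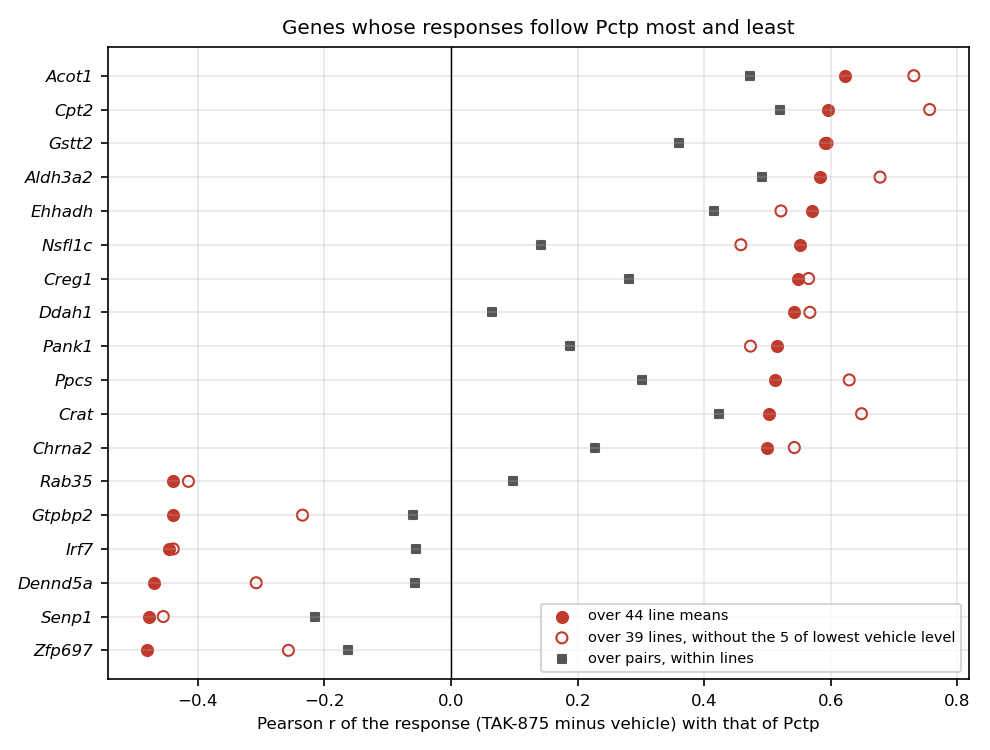
Pearson r between the response of each gene and that of Pctp, for the 12 highest and 6 lowest genes. Filled circles are over 44 line means, open circles over 39 lines without those of lowest Pctp vehicle level, and squares over pairs within lines; within lines the 12 upper genes lie between 0.064 in Ddah1 and 0.519 in Cpt2.

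PPARA targets made up 5 of the 12 genes, namely Acot1, Cpt2, Aldh3a2, Ehhadh and Crat. The list of PPARA targets was chosen with earlier results of these data known, so this count is a description. With Pctp removed, the list had 46 measured members among the 9092 other genes. Averaged per line, they responded by 0.31 ± 0.17 (SD, 44 lines), with a mean above 0 in 43 lines. That line average tracked the Pctp response with r = 0.594 and rho = 0.624 over lines, 0.608 without the 2 lines of largest Pctp response, 0.664 without the 5 lines of lowest vehicle level, and 0.427 within lines. Of the members, 42 had an r above 0 with Pctp and their median r was 0.33, while over all 9092 other genes the median was 0.02 and 56.3% were above 0. In CC010/GeniUnc the list averaged 0.0044, the second lowest, and in CC019/TauUnc, where Pctp was higher by 0.25, it averaged -0.04, the lowest. The 4 lines of largest Pctp response, CC037/TauUnc, CC058/Unc, CC070/TauUnc and CC060/Unc, ranked 12th, 9th, 6th and 33rd by the list.

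In this list, 33 members were called higher and 2 lower with TAK-875, and 11 were not called, where 27.1% of all genes were called, 15.3% higher and 11.9% lower. The median change of the list was 0.26, against 0.0056 over all genes. The 2 lower members, named after their values were seen, were the malic enzyme gene Me1, which fell by 0.26, and the coenzyme A hydrolase gene Nudt7, which fell by 0.24. Acot3, a peroxisomal thioesterase, rose by 1.15 ± 0.94 and Vnn1, a pantetheinase, by 0.98 ± 0.63 (SD, 44 lines, adjusted p = 3.15e-09 and 6.09e-12). Acot1 and Acot3 are close paralogs, and the name of the Acot3 probe set marks it as one shared by related transcripts, so the values of both genes are uncertain. The split of calls over all genes depended on the scaling: 1388 genes were higher and 1078 lower as deposited, 1052 higher and 1334 lower after centring each array on its median, and 1177 higher and 1383 lower after another quantile normalization. The PPARA list was chosen with earlier results of these data known.

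Relatives of Pctp in the START family were read next. Of 12 measured relatives, 1 was called higher, 2 were called lower and 9 were not called, near the 27.1% called over all genes, and their median change was -0.02. Acot12, a cytosolic acetyl-CoA thioesterase, rose by 0.26 ± 0.23 (adjusted p = 5.88e-08), with 8.38 in TAK-875 livers and 8.13 in vehicle livers. Acot11, a thioesterase with a START domain, fell by 0.11 (adjusted p = 0.00589), and Stard13 fell by 0.11 (adjusted p = 0.00328). The ceramide carrier Cert1 (0.12 ± 0.50), the cholesterol carrier Stard4 (0.12 ± 0.43), Stard5 (-0.06 ± 0.22), Stard10 (0.04 ± 0.10), which also binds phosphatidylcholine, and Dlc1 (-0.04 ± 0.31) did not pass. Stard8 (-0.03 ± 0.27), Stard3 (-0.02 ± 0.15), Stard7 (-0.02 ± 0.14), which carries phosphatidylcholine to mitochondria, and Star (0.01 ± 0.22), the steroidogenic carrier of cholesterol, did not pass either. Stard6 and Stard9 were not analysed here. Acot13, the binding partner of Pctp, averaged 8.51 with TAK-875 and 8.55 with vehicle, a difference of -0.04 ± 0.21 that did not pass (adjusted p = 0.330).

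Genes that make, take apart or move phosphatidylcholine were read beside Pctp as its lipid context. Of 16 genes of phosphatidylcholine synthesis and choline uptake, 2 were called higher and 4 lower, where 15.3% of all genes were higher and 11.9% lower, with a median change of -0.0067. Choline kinase beta, Chkb, rose by 0.23 ± 0.22, while choline kinase alpha, Chka, fell by 0.16 and the choline transporter genes Slc44a3 and Slc44a1 fell by 0.17 and 0.09. Of 7 genes of choline oxidation and methyl donors, 2 were called higher and 3 lower, beside 27.1% of all genes called, with a median of 0.06. Mat1a, the S-adenosylmethionine synthetase of hepatocytes, rose by 0.17 and the dimethylglycine dehydrogenase gene Dmgdh by 0.15, while the sarcosine dehydrogenase gene Sardh and the betaine aldehyde dehydrogenase gene Aldh7a1 each fell by 0.15. Both lists held calls in both directions.

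Of 20 genes of phospholipid remodelling and breakdown, 6 were called higher and none lower, with a median of 0.04. Of all genes, 15.3% were called higher and 11.9% lower. The phospholipases Pla2g12a and Pla2g6 rose by 0.46 ± 0.37 and 0.30 ± 0.28, Gpcpd1, which cleaves glycerophosphocholine, by 0.28 ± 0.54, and the lysophosphatidylinositol acyltransferase Mboat7 by 0.23 ± 0.21. Of 16 genes of phospholipid transfer and export other than Pctp, 4 were called higher and 1 lower, beside the same shares of all genes, with a median of 0.00051. Mfsd2a, a carrier of lysophosphatidylcholine, rose by 0.60 ± 1.04, Abcb4, which exports phosphatidylcholine into bile, by 0.33 ± 0.34 and Mttp, which loads lipid onto apolipoprotein B, by 0.11 ± 0.23, while the phospholipid flippase gene Atp11a fell by 0.34.

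**Figure D5:**
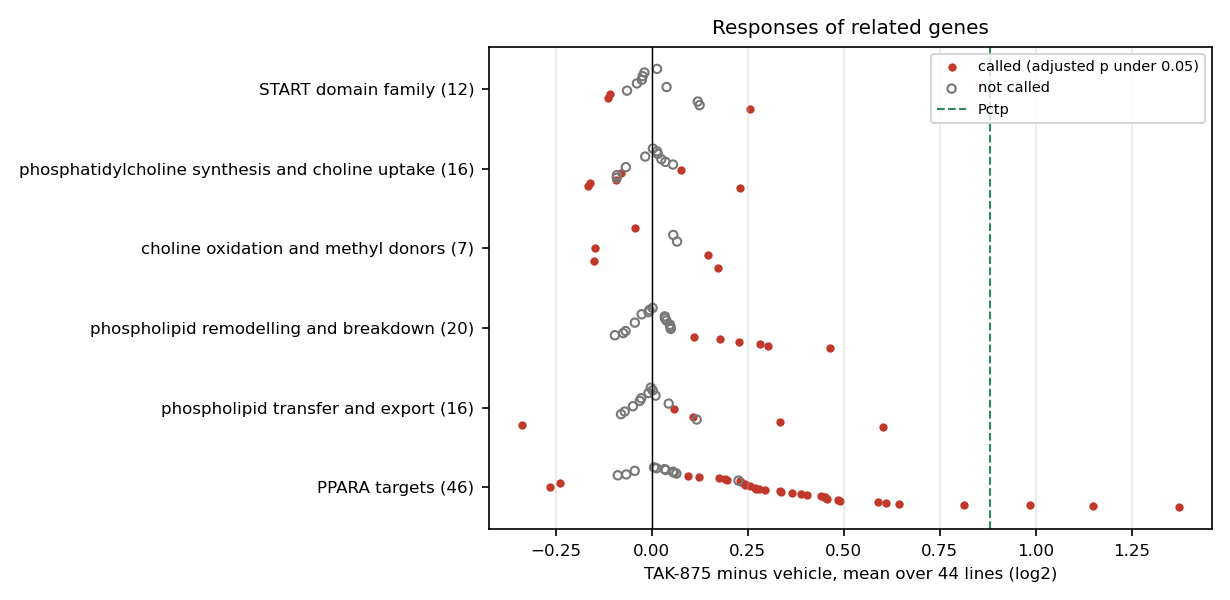
Mean TAK-875 minus vehicle difference over 44 lines (log2) of the measured members of each list, Pctp left out, with filled red points for called genes and open grey points for the others. The dashed green line marks Pctp at 0.88, and the points above it in value are 3 PPARA targets, Acot1, Acot3 and Vnn1.

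The vehicle level of Pctp had its own closest genes over lines. These were Coa3, an assembly factor of cytochrome oxidase (r = 0.517), Miga2, a protein of the outer mitochondrial membrane (0.503), Acot3 (0.492), the olfactory receptor gene Olfr701 (0.491), Sntb2, a syntrophin (0.482), and Uck1, a uridine-cytidine kinase (0.459). Acot3 alone of these was called with TAK-875, and none was among the 12 whose response followed Pctp.

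Genes next to Pctp on the chromosome, in the order of the RefSeq table, were read for their vehicle levels too. On one side these were Elobl, an elongin B-like gene, the coilin gene Coil and the ubiquitin ligase gene Trim25, and on the other Mmd, the transcription factor gene Hlf and Stxbp4. Elobl, singled out after its values were seen, had the second lowest vehicle r with Pctp of all genes, -0.530. Its line means ran between 3.04 and 7.00 around a median of 3.31. In the 4 lines of lowest Pctp vehicle level, Elobl lay between 5.70 and 7.00. It was at 5.70 or above in 6 further lines, whose Pctp vehicle levels were 6.94 to 8.03. Below these came CC033/GeniUnc, CC063/Unc and CC032/GeniUnc, with Elobl at 5.36, 5.29 and 5.17 and Pctp at 7.55, 7.69 and 7.88. CC058/Unc, the fifth lowest for Pctp, had an Elobl level of 3.27. In CC010/GeniUnc, Elobl was lowest in strain pair 2, by less than the Pctp split: it had 5.13 with TAK-875 and 5.50 with vehicle, beside 5.37 to 6.10 in the remaining TAK-875 mice and 5.69 to 5.90 in the remaining vehicle mice. Mmd was highest in that pair, at 10.62 with TAK-875 and 10.73 with vehicle, beside 8.52 to 10.36 in the remaining TAK-875 mice and 10.26 to 10.46 in the remaining vehicle mice. The 8.52 was from strain pair 4, whose TAK-875 array had the lowest median correlation of the series. Strain pairs 1 and 3 had 10.26 and 10.36 with TAK-875. Stxbp4 was at 5.31 in the TAK-875 mouse of that pair, beside 2.82 to 3.75 in the remaining TAK-875 mice, but at 2.96 in its vehicle mouse, within the 2.92 to 3.71 of the remaining vehicle mice. In Coil, Trim25 and Hlf, the mice of that pair were not both highest or both lowest. The vehicle r with Pctp of the neighbours other than Elobl ran from -0.153 in Trim25 to 0.152 in Mmd.

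Array quality and cell type markers were read beside Pctp. Array medians ran from 5.40 to 6.22, and Pctp pair differences correlated with the pair's difference in array median by 0.156. Hepatocyte markers were present on every array, with a list mean of 12.09 to 12.80 with TAK-875 and 12.00 to 12.78 with vehicle, as the liver label says. Of 8 hepatocyte markers, 3 were called higher and 1 lower, where 15.3% of all genes were called higher and 11.9% lower. Of 12 markers of Kupffer cells and macrophages, 10 were called lower, against 11.9% of all genes, with a median change of -0.21 and list means of 5.13 to 7.95 with TAK-875 and 5.96 to 8.56 with vehicle, and their part in the Pctp response was not tested. In whole liver, fewer cells of a type and less RNA per cell cannot be told apart. Of 10 endothelial markers, 5 were called lower, and of 8 stellate cell markers, 3 were, again beside 11.9% of all genes. The median r of the Kupffer cell markers with the Pctp response over lines was -0.06.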

How the data were processed

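Liver RNA was measured on 342 arrays. The deposited values are on a log2 scale. The submitters' processing notes name Affymetrix Power Tools and RMA, without versions. The platform's annotation and RefSeq symbols named the probe sets: 13083 name 1 gene, 261 several and 3053 none. For 9093 genes, the probe set of highest mean was used.

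Pctp and all lists were chosen with earlier results of these data known. Differences were taken within study pairs, averaged per line and tested over 44 lines with limma 3.58.1 (R 4.3.3, eBayes with trend, two-sided, Benjamini-Hochberg over all genes, threshold 0.05). Vehicle levels were compared by moderated F test. Scripts were tested on simulated data. Figures and sequence searches used Python 3.11.15, pandas 2.3.3 and matplotlib 3.10.9. Every array is another animal, and their number limits the precision.

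The labels state that mice were treated in pairs. Deviations from group means correlated by 0.03 on average within pairs, and 58 of 171 pairs exceeded 0.1. Between pairs of a line the average was -0.0098. Deviations cancel out within a group, so this value follows from the first and is no separate comparison.

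The named genes were the 12 highest and 6 lowest r with the Pctp response, the 6 highest with its vehicle level, up to 4 called members per list, the START family and binding partners, 3 measured neighbours on each side, and the 4 lines at each end of response and vehicle level. Alternatives were scaling, probe set choice, dim genes, variance trend, Spearman rho, left-out pairs or lines, and the study pair as a block. No pseudocount was needed.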

Additional observations from a re-analysis of the deposited data

Results flagged for a closer look

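In groups of 4, a mouse or pair was looked at again when its gap to the nearest of the others took most of the group's range, by Dixon's 95% critical value for 4 samples. This was done for 78 groups of 4 arrays and 39 lines of 4 pair differences, and 8 values met it. Chance alone marks about 1 in 20 such groups.

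For Pctp levels with TAK-875, strain pair 4 stood apart in 3 lines. It was at 8.39 in CC003/Unc (others 8.26), at 8.17 in CC023/GeniUnc (others 8.71 to 8.81) and at 7.84 in CC032/GeniUnc (others 8.41 to 8.49). Among vehicle mice, strain pair 2 was at 7.81 in CC010/GeniUnc (others 4.56 to 4.89) and at 8.60 in CC027/GeniUnc (others 7.96 to 8.03). The CC010/GeniUnc mouse lay farthest from its group, and its TAK-875 pair-mate was high as well.

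For Pctp pair differences, strain pair 2 of CC001/Unc was at 0.71 (others 1.11 to 1.17), strain pair 1 of CC010/GeniUnc at 0.98 (others -0.25 to -0.10) and strain pair 2 of CC030/GeniUnc at 1.89 (others 0.94 to 1.07). The causes were not tested.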

How the results depend on the processing

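The Pctp mean difference lay between 0.80 and 0.90 under the alternatives that did not leave out a strain pair number, and between 0.86 and 0.91 without each number in turn. With the study pair as a replicate block, it was 0.88, with 1696 genes called higher and 1371 lower, 2 START relatives higher and 2 remodelling genes lower, and no other count of a list moved by over 1.5 times under the block. The correlation of TAK-875 and vehicle line levels ran from 0.803 to 0.850 without each number, F from 13.3 to 24.2, genes called higher from 1046 to 1289 and lower from 855 to 1104.

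List counts are small, and a single call moves them. Centring gave 1 gene higher and 6 lower in phosphatidylcholine synthesis, and 2 lower in remodelling. Quantile normalization gave 6 lower in phosphatidylcholine synthesis and 1 lower in remodelling. The mean of all probe sets gave 2 higher in the START family and 1 higher in phosphatidylcholine synthesis. Without poorly correlated pairs, 3 START genes and 4 of choline oxidation were higher. Without the dimmest 25% of genes, 2 START genes were higher and 0 lower, where fewer genes were tested. Without each strain pair number, START counts were 1 to 2 higher and 1 to 2 lower, phosphatidylcholine synthesis 1 to 4 lower, choline oxidation 2 to 4 higher and remodelling 0 to 1 lower. Of the 12 genes whose response followed Pctp, 7 were among the top 12 with the mean of all probe sets, 5 within lines and 8 to 9 without each number. Otherwise the cause was not tested. Leaving out CC010/GeniUnc or the 5 lines of lowest vehicle level was chosen after seeing the data. Signal over background was not used here, so what depth limits at low levels is unknown.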
